A study of Mus musculus with 6 samples.

Results

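The complement, coagulation and pentraxin genes encode plasma proteins that the liver secretes for innate defence and blood clotting. They were a list of 35 genes, taken by gene symbol and read from the brightest probe set that the platform annotation pairs with 1 gene. Of these, 32 had such a probe set and all 32 passed a filter on dim signal (3 or more of the 6 arrays above 4 on the log2 scale), among 8554 genes tested in all. C3, C4b and Cpb2 were not analysed here. The lowest value of any of the 32 on any array was 7.76 on the log2 scale, so none of them depended on 1 group to pass the filter.

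The samples were 6 Affymetrix arrays of whole-liver total RNA, 3 from each genotype, from C57BL/6 mice 18 hours after partial hepatectomy, the removal of most of the liver, which sets off regeneration. Every mouse carried Socs3 fl/fl, a Socs3 gene flanked by loxP sites. The Cre plus mice also carried Alb-Cre, a Cre recombinase driven by the albumin promoter, which removes Socs3 in hepatocytes, and are the knockout. The Cre minus mice were Alb-Cre- littermates and are the control. Ages were not given in the sources used here. The arrays are lettered A, B and C within each genotype, and the labels do not say that each came from its own mouse, so a p-value here measures array-to-array spread, and some of that spread may be technical. No array from before surgery and no Cre-bearing control was analysed here, so a difference present before surgery, or one made by Cre itself, cannot be told apart from an effect of Socs3 loss on regeneration.

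Socs3 is a feedback inhibitor that binds cytokine receptors and JAK kinases and limits signalling from interleukin-6 (IL-6) to the transcription factor STAT3. In hepatocytes that signal, together with C/EBP factors, drives the acute phase response, in which fibrinogen, pentraxins and several complement proteins are known to be made in greater amounts. Complement is a cascade of proteases started by antibodies (classical), by sugar-binding lectins (lectin) or directly on surfaces (alternative), which ends in a membrane pore (terminal). Coagulation runs from contact factors and vitamin K-dependent proteases to thrombin, which turns fibrinogen into fibrin.

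Socs3 itself, the check of the labels, did not overlap between genotypes and was the lower in Cre plus, with a log2 fold change (Cre plus over Cre minus) of -2.01 ± 0.22 (SE, n = 3 per group) on its brightest probe set and a limma adjusted p = 0.0732. Array medians lay between 2.98 and 3.02, and correlations between arrays ran from 0.982 to 0.995. Each pair of Cre minus arrays was at 0.995, while pairs of Cre plus arrays ran from 0.987 to 0.990. Array B of Cre plus was closer to every Cre minus array (0.991 to 0.993) than to either other knockout array (0.989 for A, 0.987 for C). Against the Cre minus arrays, knockout array A ran from 0.983 to 0.988 and knockout array C from 0.982 to 0.986. Of 10 listed hepatocyte markers, 9 were measured, all with a mean log2 value of 11.8 or more, and 1 of them, Cps1, was lower at an unadjusted p under 0.05. On the log2 scale their summed level ran from 17.45 to 17.50 in Cre minus and from 17.35 to 17.48 in Cre plus. All 6 measured lymphocyte markers were under the filter, at 3.66 or below. In whole liver, fewer cells of a type and less RNA per cell cannot be told apart.

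The promoters of the genes that the results turn on are shown first: the 3 fibrinogen genes, which are neighbours on chromosome 3 and for which an IL-6 response is textbook knowledge, and the neighbouring F11 and Klkb1, which had the lowest fold changes among the members and were chosen for that after their values were seen. The sequences are the 250 bases upstream of the annotated start, from RefSeq on GRCm38.p6, 5′ to 3′ on the gene's own strand. Capitals mark matches on either strand to 4 motifs: TTCNNNGAA (bound by STAT factors), CTGGGAA (the core of an IL-6 response element, which can overlap the STAT motif), TTGNNCAA (C/EBP) and GTTAATNAT (the start of the HNF1 consensus). Fgg lies at chr3:83007474-83007723 (plus strand), Fga at chr3:83025903-83026152 (plus strand) and Fgb at chr3:83049864-83050113 (minus strand). F11 lies at chr8:45262032-45262281 (minus strand) and Klkb1 at chr8:45294836-45295085 (minus strand).
Fgg: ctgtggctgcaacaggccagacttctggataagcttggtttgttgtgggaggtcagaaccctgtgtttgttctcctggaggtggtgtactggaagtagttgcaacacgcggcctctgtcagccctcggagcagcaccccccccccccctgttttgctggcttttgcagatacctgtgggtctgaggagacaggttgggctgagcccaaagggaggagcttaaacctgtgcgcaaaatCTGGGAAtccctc
Fga: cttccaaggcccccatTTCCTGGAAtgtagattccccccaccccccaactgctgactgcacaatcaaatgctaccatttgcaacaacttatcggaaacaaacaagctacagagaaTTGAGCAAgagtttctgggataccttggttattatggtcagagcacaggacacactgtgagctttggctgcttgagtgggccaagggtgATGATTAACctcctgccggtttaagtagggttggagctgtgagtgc
Fgb: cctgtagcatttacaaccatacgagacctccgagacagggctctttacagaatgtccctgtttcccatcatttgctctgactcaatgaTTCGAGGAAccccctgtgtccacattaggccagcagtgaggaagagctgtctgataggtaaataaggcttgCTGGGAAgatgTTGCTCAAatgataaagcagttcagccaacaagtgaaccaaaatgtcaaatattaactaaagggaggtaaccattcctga
F11: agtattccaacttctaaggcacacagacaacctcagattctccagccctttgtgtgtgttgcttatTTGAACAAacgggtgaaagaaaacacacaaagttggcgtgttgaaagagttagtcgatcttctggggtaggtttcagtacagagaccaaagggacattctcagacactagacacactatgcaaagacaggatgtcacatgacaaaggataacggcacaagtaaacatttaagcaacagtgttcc
Klkb1: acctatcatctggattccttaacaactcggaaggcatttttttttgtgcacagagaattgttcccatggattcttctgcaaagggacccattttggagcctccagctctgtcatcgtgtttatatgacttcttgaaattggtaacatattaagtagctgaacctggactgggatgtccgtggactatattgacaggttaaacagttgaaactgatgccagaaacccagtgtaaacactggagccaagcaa

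The Fga window held 3 matches (STAT, C/EBP and HNF1) and the Fgb window 3 (STAT, the IL-6 element and C/EBP). The Fgg window held 1 match, the IL-6 element, and the F11 window 1, to the C/EBP motif. The Klkb1 window held 0, which says only that these letters are not in it. Of the 32 members, 25 had an entry in the promoter table. C2, Cfb, Cfi, Kng1, Masp1, Plg and Proc did not. The STAT motif was in 7 of the 25 members (28%), against 7.02% of all 32851 promoters, and the IL-6 element in 5 (20%), against 9.1%. The C/EBP motif was in 6 (24%), against 5.65%, and the HNF1 motif in 4 (16%), against 0.737%. A match describes the sequence and is not evidence that a factor binds there.

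Most complement and clotting genes had nearly the same level in livers with and without hepatocyte Socs3. The median log2 fold change over the 32 members was -0.03, against -0.01 over all 8554 genes tested, and 12 were higher and 20 lower in value. Their median size, ignoring sign, was 0.06, against 0.11 over all genes. The members were bright, with mean log2 values from 8.18 to 15.7, while those of all genes began at 3.88. The part of signal level in this comparison and in the interval counts below was not tested. By limma none of the 32 passed an adjusted p under 0.05 over all genes, where 2 genes (0.0234%) passed in all, and the smallest adjusted p among them was 0.146. At an unadjusted p under 0.05 none was higher, against a background of 6.62% of all genes, and 2 were lower, Klkb1 and C8g, against 8.21%. For 28 of the 32 (87.5%) the 95% interval of the change lay wholly within 1.5-fold in either direction, against 77.1% of all genes, and for 30 (93.8%) within 2-fold, against 94.2%. The exceptions to the narrower range were Klkb1, F11, Mbl2 and F13b. The 3 arrays of 1 genotype did not overlap those of the other in 1 member that was higher in Cre plus, Fgb (background 9.21%), and in 2 that were lower, Klkb1 and C8g (background 11.9%).

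**Figure D1:**
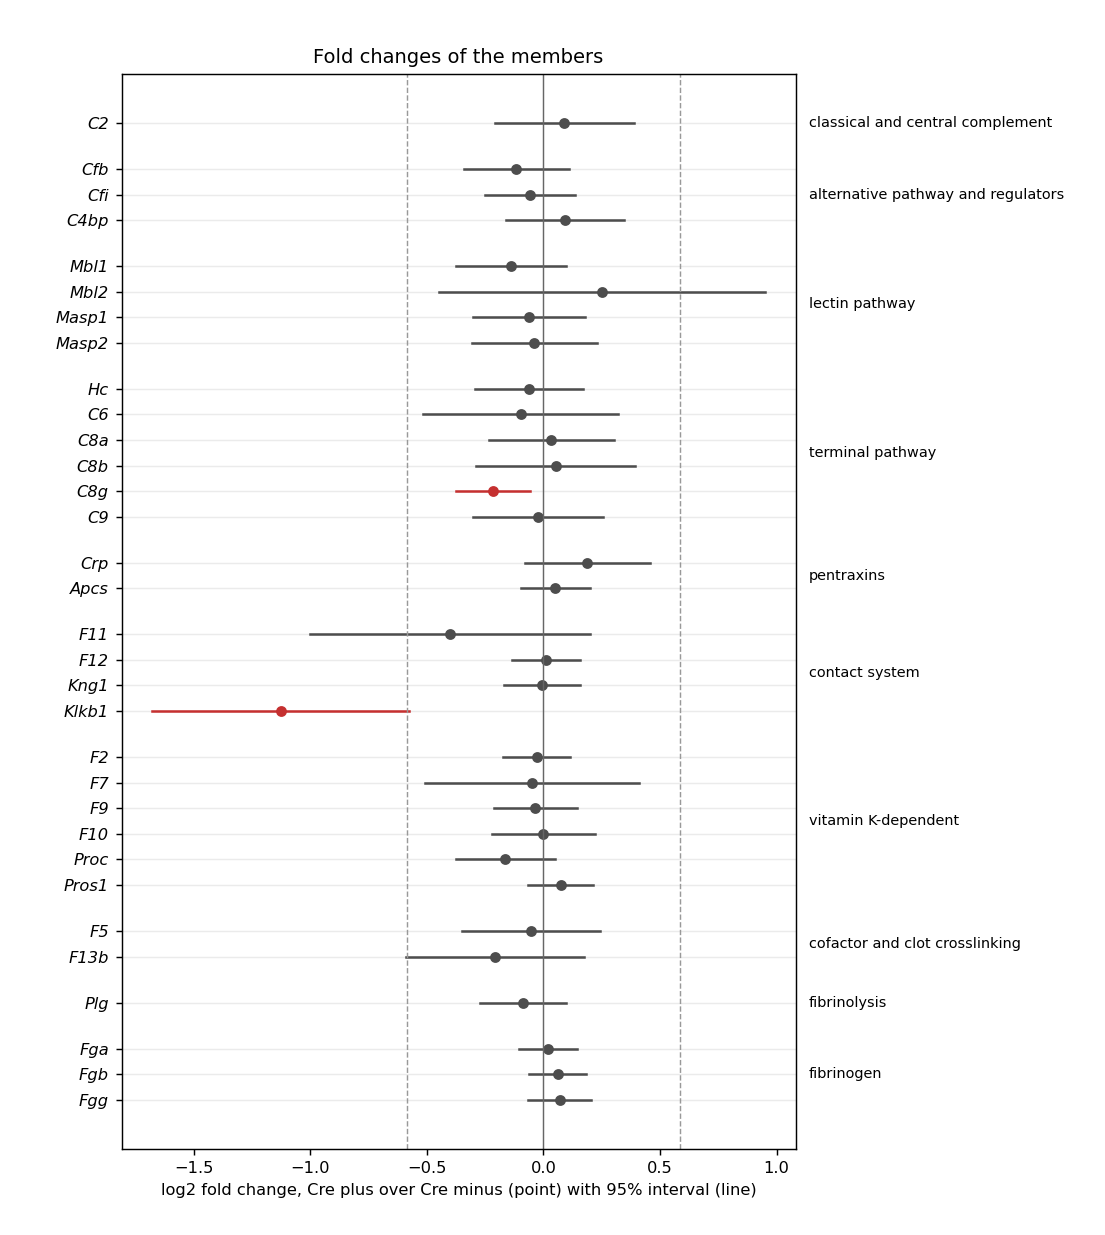
Log2 fold change of each of the 32 members, Cre plus over Cre minus (points), with limma's 95% interval (lines), grouped by cascade. Dashed lines mark 1.5-fold in either direction, and red marks an unadjusted p under 0.05. All but Klkb1, F11, Mbl2 and F13b have intervals inside the dashed lines.

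The contact system held the member with the lowest fold change. Klkb1 encodes plasma prekallikrein, the protease that activates factor XII and releases bradykinin from kininogen. Its log2 values were 9.53, 8.93 and 9.23 in the Cre minus arrays (A, B and C in turn) and 7.76, 8.45 and 8.10 in the Cre plus arrays. Every Cre plus array was below every Cre minus array, and Cre plus A was the lowest. The log2 fold change of -1.13 ± 0.22 (SE) puts Cre plus at 45.8% of Cre minus on the linear scale (95% interval 31.2% to 67.0%). Limma gave an unadjusted p = 0.00249 and an adjusted p = 0.146, so it did not pass over all genes. The exact permutation p was 0.1, the smallest that 3 arrays against 3 can give (two-sided). Over all 15 alternatives its fold change ran from -1.30 to -0.96, with an unadjusted p from 0.00109 to 0.0140 and an adjusted p from 0.0706 to 0.403. Since the genotypes did not overlap, leaving out 1 array could not change its sign. Klkb1, like F11 and C8g, had 1 kept probe set, so the alternatives that changed probe sets left its fold change as it was.

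F11 encodes factor XI, a protease closely related to prekallikrein, and is the next protein-coding gene to Klkb1 in the RefSeq annotation. Its values were 9.64, 9.96 and 9.08 in Cre minus and 8.90, 9.36 and 9.22 in Cre plus, again in the order A, B and C, as in all such lists. The groups overlapped, since Cre minus C was lower than Cre plus B and Cre plus C. The log2 fold change was -0.40 ± 0.25, or 75.7% of Cre minus on the linear scale (95% interval 49.9% to 114.9%), and did not pass (limma unadjusted p = 0.153). It depended on single arrays, being -0.20 without Cre minus B and -0.64 without Cre minus C, the latter with an unadjusted p = 0.0167. Beyond Klkb1 on the other side, Cyp4v3, a cytochrome P450, had -0.27 ± 0.08 (unadjusted p = 0.0192), and Fam149a, the gene after it, -0.20 ± 0.18 with overlapping groups. On the F11 side, Mtnr1a was not among the genes tested, and Fat1, the protocadherin gene after it, was higher at 0.56 ± 0.12 without overlap (unadjusted p = 0.00404).

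The fold changes of the other contact genes were near 0. F12, which encodes factor XII, the protease that starts contact activation on surfaces, was at 11.53 ± 0.06 in Cre minus and 11.54 ± 0.04 in Cre plus (SD, n = 3), a log2 fold change of 0.01 ± 0.06. Kng1, which encodes kininogen, the cofactor of prekallikrein and the source of bradykinin, was at 14.11 ± 0.07 in Cre minus and 14.10 ± 0.07 in Cre plus, a log2 fold change of -0.01 ± 0.07. Their 95% intervals were -0.13 to 0.16 and -0.17 to 0.15.

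**Figure D2:**
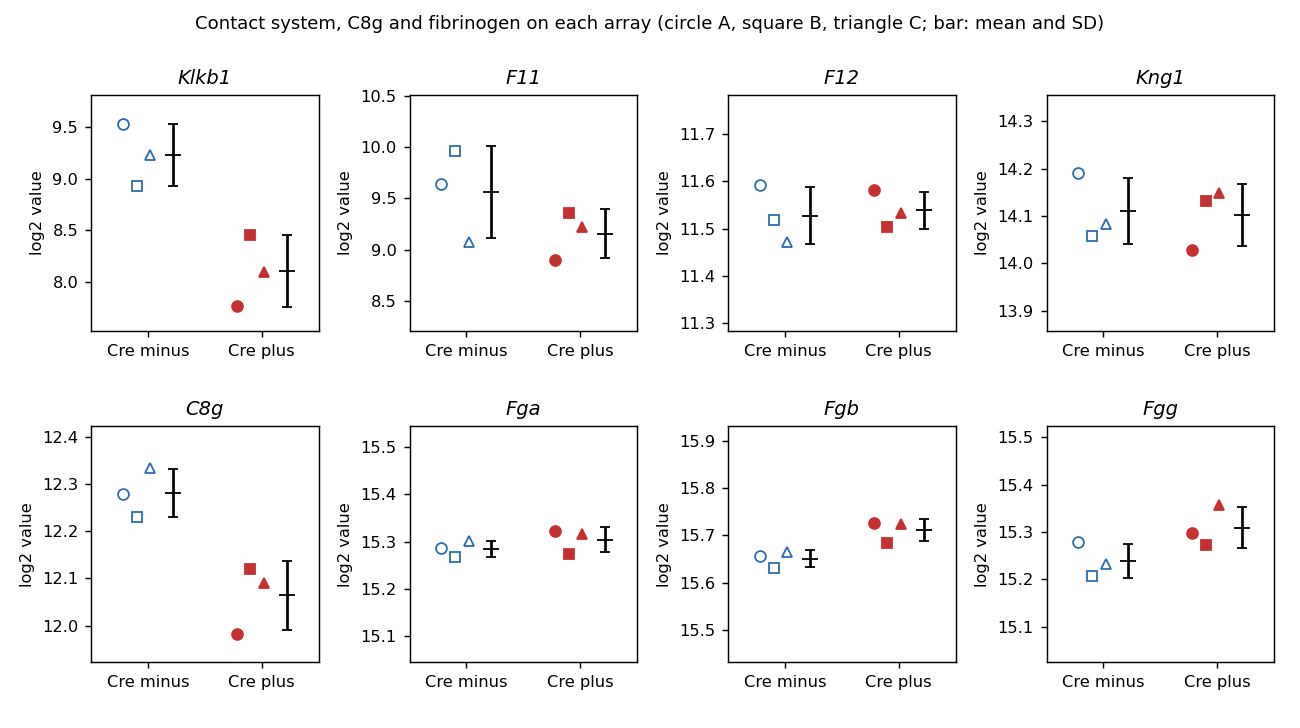
Log2 values on each array of the contact system genes (Klkb1, F11, F12 and Kng1), C8g and the 3 fibrinogen genes, with the mean and SD of each group (n = 3). Circles, squares and triangles are arrays A, B and C, and the vertical scale spans more log2 units for Klkb1 and F11 than for the other panels, which share 1 span. The Cre plus arrays lie below the Cre minus arrays for Klkb1 and C8g and above them for Fgb.

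Fibrinogen, the precursor of fibrin, is built from the products of Fga, Fgb and Fgg and is a classical acute phase protein. All 3 had slightly higher means in Cre plus and none passed. Fgb was at 15.66, 15.63 and 15.67 in the Cre minus arrays (A, B and C in turn) and 15.73, 15.68 and 15.72 in the Cre plus arrays. The groups did not overlap, but the log2 fold change was 0.06 ± 0.05, a signal 104.3% of that in Cre minus (limma unadjusted p = 0.269, adjusted p = 0.606). Limma's SE also draws on the spread of all genes tested, and the pooled SD of the Fgb arrays alone was 0.02. The unadjusted limma p of Fgb depended on this, at 0.0722 with a prior that follows intensity and 0.0179 with no filter. Fgg was at 15.28, 15.21 and 15.23 in Cre minus and 15.30, 15.27 and 15.36 in Cre plus, a log2 fold change of 0.07 ± 0.05, and Cre plus B lay below Cre minus A. Fga was at 15.29, 15.27 and 15.30 in Cre minus and 15.32, 15.27 and 15.32 in Cre plus, a log2 fold change of 0.02 ± 0.05, and its groups overlapped. These genes sat near the top of the scale, where the highest value of any probe set was 15.7, and whether the values there are compressed was not tested. Of 58 genes tested with a mean over 14, where the 3 fibrinogen genes, Apcs and Kng1 lie, the median fold change was 0.02 and 35 were higher. Fgb had the same rank on every array, so quantile normalization sets its difference to 0 by construction and does not bear on it. The upper ends of the 3 intervals reached 0.14 for Fga, 0.18 for Fgb and 0.20 for Fgg.

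Pentraxins are ring-shaped pattern recognition proteins that can activate complement. Crp, C-reactive protein, which in mice responds far less to inflammation than in humans, was at 12.58, 12.50 and 12.69 in Cre minus and 12.73, 12.98 and 12.63 in Cre plus. Cre plus B was the highest of the 6 and Cre plus C lay below Cre minus C. Its log2 fold change was 0.19 ± 0.11 (95% interval -0.08 to 0.46, unadjusted p = 0.135), and 0.09 without Cre plus B. Apcs, serum amyloid P component, the pentraxin known to respond in mice, was at 14.26, 14.24 and 14.16 in Cre minus and 14.21, 14.32 and 14.29 in Cre plus, with a log2 fold change of 0.05 ± 0.06 and overlapping groups. The 2 genes are neighbours on their chromosome.

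Of the tested members in the classical and alternative pathways and their regulators (C2, Cfb, Cfi and C4bp), none passed, and the genotypes overlapped in each. The C1q genes were not on the list of members and are given below. C2, the protease subunit of the classical and lectin C3 convertase, was at 8.59, 8.44 and 8.37 in Cre minus and 8.34, 8.76 and 8.57 in Cre plus. Cre plus A was the lowest and Cre plus B the highest of the 6 arrays, and the log2 fold change was 0.09 ± 0.12. Its 3 probe sets gave 0.05 to 0.14. Cfb, factor B, the corresponding protease of the alternative pathway, was at 12.28, 12.07 and 12.29 in Cre minus and 12.13, 12.19 and 11.98 in Cre plus, a log2 fold change of -0.12 ± 0.09 with overlapping groups (unadjusted p = 0.249). The regulators Cfi, the factor I protease that cuts C3b and C4b, and C4bp, its cofactor, had log2 fold changes of -0.06 ± 0.08 and 0.09 ± 0.10.

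The lectin pathway held the member with the highest fold change, but its spread was wide. Mbl2, a mannose-binding lectin, was at 10.74, 10.08 and 10.25 in Cre minus and 10.07, 10.98 and 10.78 in Cre plus. Cre plus A was the lowest and Cre plus B the highest of the 6 arrays, so the Cre minus values lay between values of Cre plus. The log2 fold change was 0.25 ± 0.28 and its interval of -0.45 to 0.95 lies on both sides of 0. Leaving out Cre plus A gave 0.52 and leaving out Cre plus B gave 0.07, and it was not the highest of the members without Cre minus B, Cre minus C, Cre plus B or Cre plus C. Mbl1, the other mannose-binding lectin of mice, was at 11.69, 11.51 and 11.51 in Cre minus and 11.34, 11.60 and 11.37 in Cre plus, a log2 fold change of -0.14 ± 0.10 with overlapping groups (unadjusted p = 0.198). Without Cre plus B, its unadjusted p was 0.0449. Masp1 and Masp2, the proteases that lectins carry, had -0.06 ± 0.10 and -0.04 ± 0.11. Their kept probe sets ran from -0.06 to 0.09 for Masp1 and from -0.04 to 0.17 for Masp2, on both sides of 0.

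In the terminal pathway, C8g had the lowest fold change. It encodes the gamma chain of C8, a lipocalin that is bound to the chains that enter the membrane. Its values were 12.28, 12.23 and 12.33 in the Cre minus arrays (A, B and C in turn) and 11.98, 12.12 and 12.09 in the Cre plus arrays. All Cre plus values were below all Cre minus values, and the log2 fold change was -0.22 ± 0.06, a Cre plus signal 86.1% of Cre minus (95% interval 77.2% to 96.0%). Limma gave an unadjusted p = 0.0151 and an adjusted p = 0.238, so it did not pass over all genes, and the exact permutation p was 0.1. Without Cre minus C the unadjusted p was 0.0538. The genes of the other C8 chains, C8a and C8b, which are neighbours on their chromosome, had 0.03 ± 0.11 and 0.05 ± 0.14. Hc, which encodes C5, the precursor of the anaphylatoxin C5a, had -0.06 ± 0.09. C6 and C9, which encode the component that joins C5b and the one that forms the pore, had -0.10 ± 0.17 and -0.02 ± 0.11.

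The vitamin K-dependent proteins carry gamma-carboxylated glutamates that bind calcium and membranes. F2, which encodes prothrombin, was at 13.23 ± 0.02 in Cre minus and 13.20 ± 0.07 in Cre plus, and its log2 fold change of -0.03 ± 0.06 had an interval of -0.18 to 0.12. F9 and F10, the proteases of the tenase and prothrombinase complexes, were at 11.01 ± 0.07 in Cre minus and 10.98 ± 0.09 in Cre plus and at 11.76 ± 0.06 in Cre minus and 11.76 ± 0.15 in Cre plus. The log2 fold changes of the 3 kept F10 probe sets ran from -0.0003 to 0.15. F7, the protease that pairs with tissue factor, had -0.05 ± 0.19. Its Cre plus values ran from 7.87 in A to 8.55 in B, a wider span than the 8.10 to 8.37 of Cre minus. Proc, protein C, an anticoagulant protease, was at 12.05, 11.87 and 11.91 in Cre minus and 11.66, 11.90 and 11.77 in Cre plus. Its log2 fold change of -0.16 ± 0.09 did not pass (unadjusted p = 0.108), and its unadjusted p was 0.0468 without Cre plus B. Pros1, protein S, the cofactor of protein C, had 0.07 ± 0.06.

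The remaining clotting and lysis genes also overlapped between genotypes. F5, the factor V cofactor of activated factor X, had -0.05 ± 0.12, and its 2 kept probe sets gave -0.18 to -0.05. F13b, the carrier subunit of the transglutaminase that crosslinks fibrin, was at 11.31, 11.05 and 10.97 in Cre minus and 10.64, 11.15 and 10.93 in Cre plus, a log2 fold change of -0.21 ± 0.16 (unadjusted p = 0.233), with Cre plus A the lowest array. Plg, plasminogen, the precursor of the protease that dissolves fibrin, was at 13.82, 13.67 and 13.75 in Cre minus and 13.56, 13.74 and 13.68 in Cre plus, a log2 fold change of -0.09 ± 0.07 (unadjusted p = 0.283).

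The spread between arrays of 1 genotype was larger than most differences between genotypes, with a median pooled SD of 0.12 over the members beside the median difference of 0.06, and the arrays often ranked in the same order. Among the Cre plus arrays, A had the lowest value in 22 of the 32 members (68.8%, against 30.1% of all genes) and B the highest in 26 (81.2%, against 37.3%). All 14 complement members and both pentraxins had their highest Cre plus value in B. Among the Cre minus arrays, A was the highest in 25 (78.1%, against 43.0%) and the lowest in none. The median shift of the members from the Cre minus mean was 0.05 in Cre plus B, against -0.16 in A and -0.02 in C of the same genotype. The fibrinogen genes ran the other way, with Cre plus B the lowest Cre plus array in all 3. The SD was larger in Cre plus than in Cre minus in 26 of the 32 (81.2%, against 63.1% of all genes). The summed level of the neutrophil markers S100a8 and S100a9 was 9.16 to 9.24 in Cre minus and 8.94 to 10.7 in Cre plus on the log2 scale, highest in Cre plus A. The other 3 annotated neutrophil markers, Cxcr2, Elane and Mpo, were under the filter, and the part of these cells in the order of the arrays was not tested. Members measured on 1 array share its RNA and its normalization, so these counts are a description of the 6 arrays and no test was made. The median fold change of the members, -0.03, had its sign set by single arrays, being 0.03 without Cre minus A or without Cre plus A, when 20 of the 32 were higher, and -0.09 without Cre plus B, when 9 were.

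**Figure D3:**
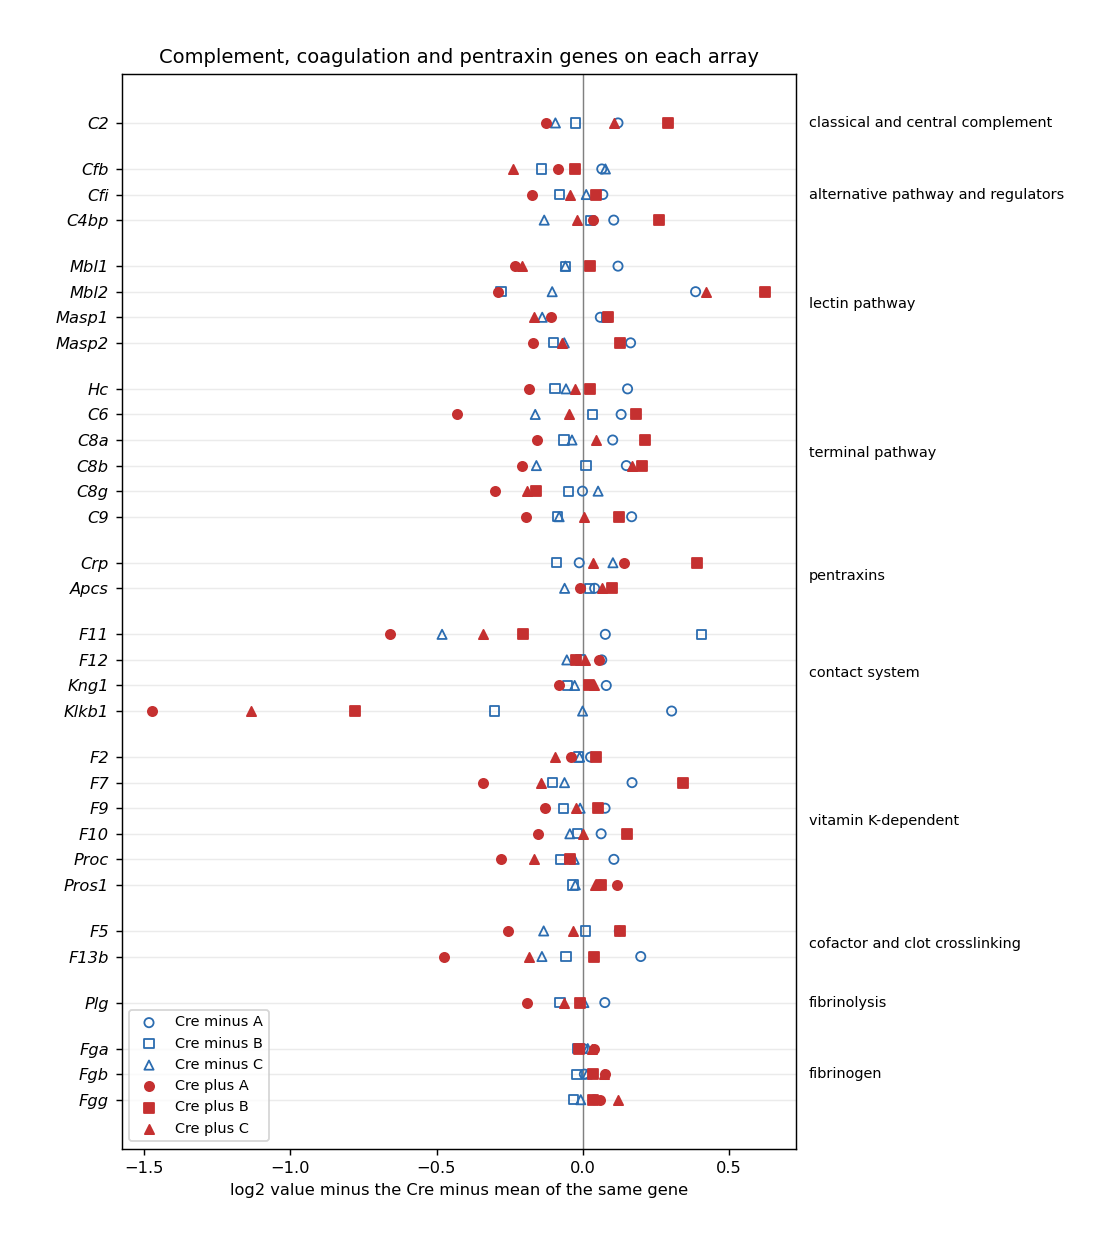
Log2 value of each member on each array minus the Cre minus mean of the same gene, grouped by cascade. Open blue symbols are Cre minus and filled red symbols Cre plus, with circles, squares and triangles for arrays A, B and C. Cre plus A (red circles) lies to the left and Cre plus B (red squares) to the right for most genes, and the red symbols of Klkb1 lie between -1.47 and -0.78.

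The other genes of the 2 pathways were taken from a list of 82 components, regulators, receptors and inhibitors. Of these 68 had a probe set paired with 1 gene and 46 passed the filter. Their median log2 fold change was -0.02, with 22 higher and 24 lower in value. None passed an adjusted p under 0.05 by limma, and at an unadjusted p under 0.05 there were 3 higher (6.52%, beside the 6.62% of all genes) and 10 lower (21.7%, beside 8.21%). The count of 10 lower became 6 without Cre minus A, without Cre minus C or without Cre plus C, and 7 without Cre plus A. It was 14 without Cre plus B, so it lay between 6 and 14.

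The higher genes included the protease inhibitors A2m and Serpina10, but inhibitors did not all differ in the same direction. Serpind1, listed as a coagulation inhibitor like Serpina10, had the lowest fold change of the 46 genes, at -0.68 ± 0.24. The 6 coagulation inhibitors tested, a list without A2m, had a median of 0.00. In value, 4 of them were higher and 2 lower. A2m, alpha-2-macroglobulin, which traps plasmin, kallikrein and other proteases and is an IL-6 target of rodent liver, was at 12.08, 12.66 and 12.16 in the Cre minus arrays (A, B and C in turn) and 13.64, 13.72 and 13.44 in the Cre plus arrays. Every Cre plus array was above every Cre minus array, and the log2 fold change was 1.30 ± 0.17 (unadjusted p = 0.000298, adjusted p = 0.0785 by limma). Over the 15 alternatives the limma adjusted p of A2m ran from 0.0322 to 0.312. The lowest came where genes had to exceed 6 instead of 4 to be tested. In that setting 56 of all genes tested passed, against 2 in the main fit. Serpina10, the protein Z-dependent inhibitor of activated factor X, was at 13.16, 12.98 and 13.05 in Cre minus and 13.43, 13.64 and 13.36 in Cre plus. The groups did not overlap, and Serpina10 had a log2 fold change of 0.42 ± 0.09 (limma adjusted p = 0.171). Its 1 kept probe set was of the _s_at type, so it dropped out of the alternative without _x_at and _s_at probe sets. The third was Cd93, a receptor of endothelial and myeloid cells first described as a C1q receptor, at 0.36 ± 0.14 (unadjusted p = 0.0410), which held in 9 of the 15 alternatives.

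The lower genes with the smallest p included complement genes that macrophages express. C1qa and C1qc, chains of the recognition unit of the classical pathway, had -0.39 ± 0.07 and -0.47 ± 0.12. C1qb, the gene of the third chain, had -0.18 ± 0.10 with overlapping groups (unadjusted p = 0.129). Vsig4, the C3b receptor of Kupffer cells, had -0.39 ± 0.09, and Fcna, ficolin A, a lectin made by macrophages, -0.38 ± 0.08. C1qa was at 8.23, 8.08 and 8.23 in Cre minus and 7.78, 7.75 and 7.83 in Cre plus, with every Cre plus array below every Cre minus array (limma unadjusted p = 0.00102, adjusted p = 0.106). Markers of Kupffer cells and macrophages were lower beside them, with all 11 of the listed genes lower in value, 7 of them at an unadjusted p under 0.05 (8.21% of all genes), and a median of -0.39. Their summed level was 12.1 to 12.2 in Cre minus and 11.6 to 11.9 in Cre plus on the log2 scale. This marker list shares C1qa, C1qb, C1qc and Vsig4 with the pathway list. Of the 7 markers outside it, 4 (Clec4f, Adgre1, Csf1r and Tyrobp) were lower at that threshold, with a median of -0.31 over the 7. The part of macrophage number in these values was not tested. Without the 4 shared genes (C1qa, C1qb, C1qc and Vsig4), the pathway list held 42 genes with a median of 0.00. At that threshold 3 of the 42 were higher (7.14%, beside 6.62% of all genes) and 7 lower (16.7%, beside 8.21%). Fcna was 1 of these 7.

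Other lower genes are known from hepatocytes or from the vessel wall. Cd59a, a membrane protein that blocks the terminal pore, was at 8.07, 7.83 and 7.97 in Cre minus and 7.44, 7.51 and 7.12 in Cre plus, a log2 fold change of -0.60 ± 0.12 without overlap (unadjusted p = 0.00287). Hgfac, a hepatocyte protease that activates hepatocyte growth factor, had -0.35 ± 0.10. The remaining 4, chosen after their values were seen, were Ggcx, the gamma-carboxylase of the vitamin K-dependent factors (-0.36 ± 0.12), Serpind1, heparin cofactor II (-0.68 ± 0.24), Hrg, histidine-rich glycoprotein (-0.22 ± 0.08), and Hpn, the protease hepsin (-0.28 ± 0.11). Serpind1 was at 11.37, 11.12 and 11.09 in Cre minus and 10.19, 11.04 and 10.31 in Cre plus, with Cre plus B just below and Cre plus A and C well below the lowest Cre minus array. Of the endothelial markers, 6 were tested and 5 were lower in value, with a median of -0.20. Oit3 was the marker among them at an unadjusted p under 0.05 (-0.24 ± 0.07), Lyve1 was the higher one, and Cdh5 was under the filter. Their summed level was 10.6 to 10.9 in Cre minus and 10.3 to 10.7 in Cre plus on the log2 scale, and its part in these values was not tested. The inhibitors Serpinc1, antithrombin, and Serping1, which blocks C1 and kallikrein, had 0.01 ± 0.06 and 0.07 ± 0.07.

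**Figure D4:**
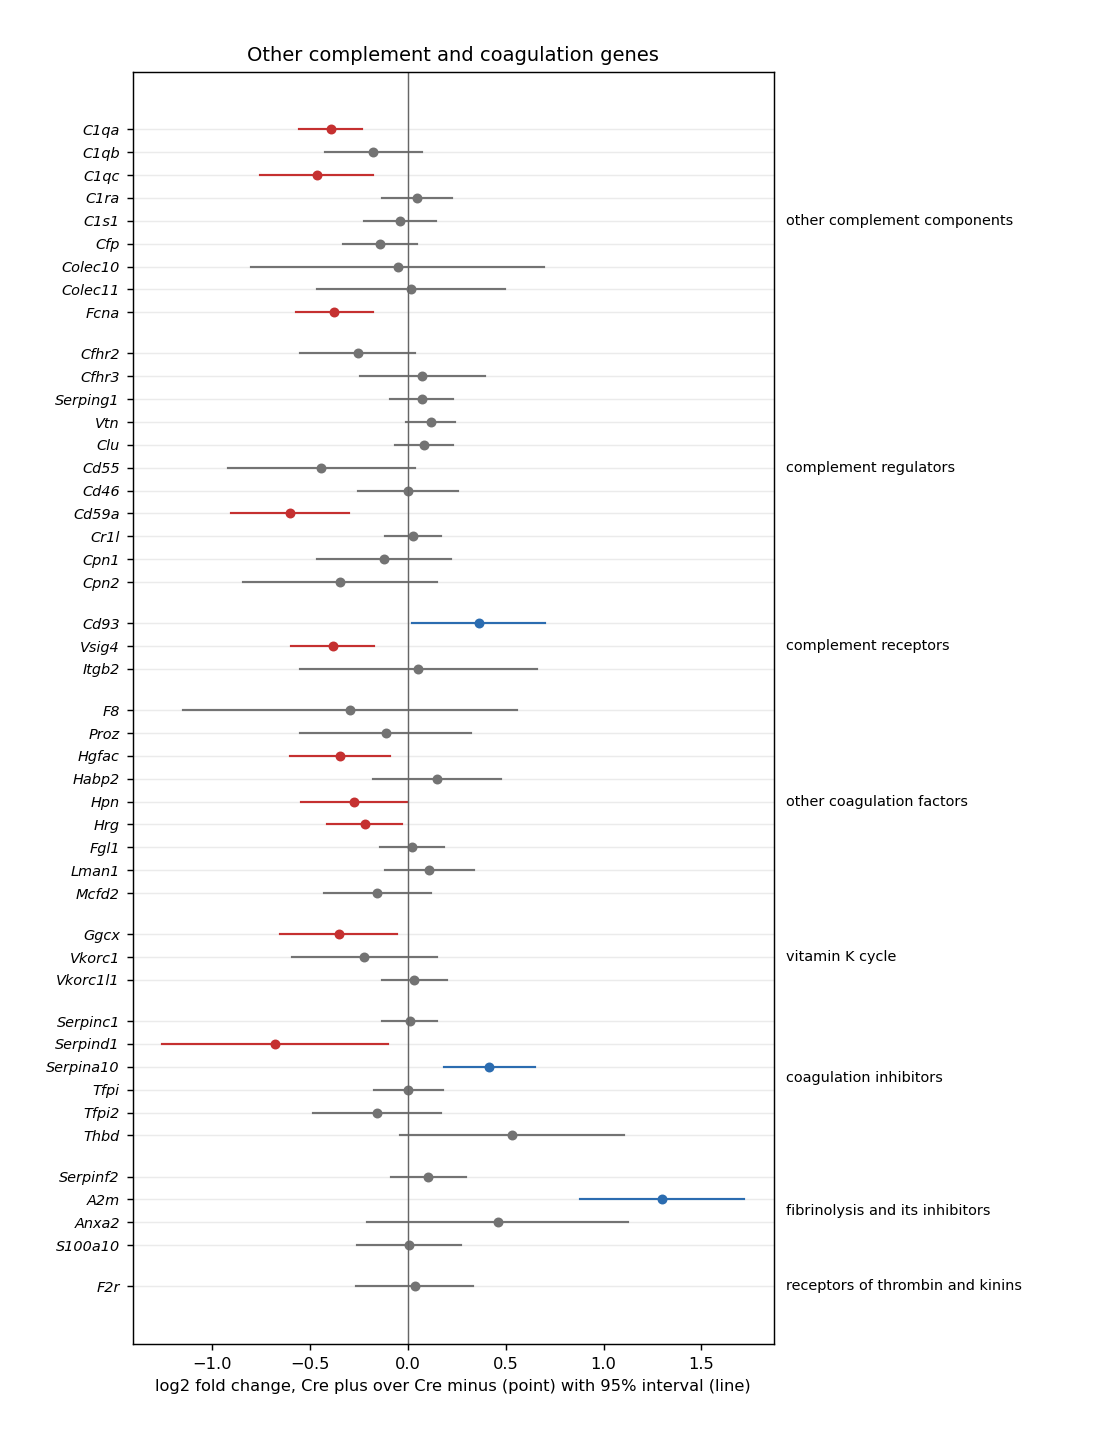
Log2 fold change of the 46 other complement and coagulation genes, Cre plus over Cre minus (points), with limma's 95% interval (lines), grouped by role. Blue marks higher and red lower genes at an unadjusted p under 0.05, with A2m at 1.30 the highest and Serpind1 at -0.68 the lowest.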

How the data were processed

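Total RNA (2 ug per array) was hybridized to Affymetrix Mouse Genome arrays. The authors deposited log2 values made with GCRMA, per the submitters' processing notes (its version was not in the sources used here); the log2 scale is read from the range of the values. GCRMA adjusts background by probe sequence and normalizes between arrays. Arrays have no read depth, and their number limits the precision.

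Of 45101 probe sets, 64 were controls, 34945 others had 1 symbol, 932 had several and 9211 none. The annotation's Entrez ID of 34741 was found in a RefSeq gene table of GRCm38.p6 and changed 0 symbols. Genes were read from their brightest kept probe set. Cre plus was compared with Cre minus over 8554 genes with limma 3.58.1 (lmFit and eBayes, R 4.3.3, two-sided, no block), with Benjamini-Hochberg adjustment. The fit was tested on simulated data. The members, lists and naming rule (all members; other pathway genes at an unadjusted p under 0.05, up to 6 a direction) were chosen with earlier results of these data known. Alternatives changed the normalization, filter, prior, probe sets, array weights, replicate block and arrays used. Figures were drawn with matplotlib 3.10.9.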

Additional observations from a re-analysis of the deposited data

How the results depend on the processing

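No member passed an adjusted p under 0.05 in any of the 15 alternatives, where the smallest was 0.0706. The count of members lower at an unadjusted p under 0.05 ran from 2 to 4 when each array was left out in turn, with 4 (Klkb1, C8g, Mbl1 and Proc) without Cre plus B, and the count of members higher was 1 (Fgb) with no filter. The count of other pathway genes lower ran from 6 to 14 when each array was left out, with 14 without Cre plus B. C8g had an unadjusted p under 0.05 in 14 alternatives and F11 in 1. Arrays of the same letter deviated from their group means with correlations of -0.15, -0.10 and 0.02. These values show no pairing by letter, but with 3 arrays a group they cannot decide whether the letters pair the arrays. With the replicate block, 2 members were lower, Klkb1 with an unadjusted p = 0.0140 (adjusted p = 0.318) and C8g with 0.0443. Of 480 member values over the alternatives, 474 kept their direction and side of the threshold, or moved by less than the spread between replicates. Changes of filter, prior or block left the fold change of every member as it was, so there only the p could differ. The same held without _x_at and _s_at probe sets. Taking the mean of kept probe sets could change the fold change only of members with more than 1. Without Cre plus A, 10 members changed sign, and without Cre minus A 8 did, all by moves small enough to be counted among the 474. With 3 arrays a group, the exact test cannot go below 0.1.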
